A study of Homo sapiens with 6 samples.

Results

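Human chromosome 19 carries large tandem arrays of zinc finger genes, and the RNA levels of these genes were examined after depletion of the transcription factor PAX9. Members were the genes on chromosome 19 whose symbol is ZNF followed by digits and at most 1 further capital letter. They numbered 252 and lay in 249 of the 27678 rows of the RNA-seq table that carry a gene symbol. The cells were MCF10A, an established non-tumorigenic line of breast epithelium. They were transfected for 72 hours with 30 nM of a non-targeting siRNA (siNT) or of siRNAs against PAX9 (siPAX9), with 3 samples of each, and poly(A)+ RNA was sequenced. Both groups therefore carry transfection reagent and siRNA, and they differ by the target of the siRNA. The levels are FPKM, fragments scaled to transcript length and to the mapped reads of a library, and the table holds 1 FPKM per group, pooled by the authors over the samples. It gives no value per sample, so no SD or test was computed for the values that follow, and the results of the authors' own test were not used. The number of reads behind an FPKM is unknown. Every change below is a difference between those pooled values. In RNA from bulk cultures, a smaller number of expressing cells and less RNA in each cell cannot be told apart.

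Most ZNF proteins bind DNA through a tandem row of C2H2 zinc fingers, each finger contacting a few bases. The majority of the family on chromosome 19 also begin with a Kruppel-associated box (KRAB), a short domain that recruits the corepressor TRIM28. TRIM28 in turn gathers the histone methyltransferase SETDB1 and the HP1 proteins, and this machinery silences transposable elements and places repressive chromatin over the zinc finger arrays themselves. The arrays arose by repeated tandem duplication, so neighbours are often close relatives.

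The members followed this architecture in their coding sequences. A KRAB core was found in 206 members and not in 36, and 10 had no usable coding model in the annotation. The number of zinc fingers had a median of 12 and ran from 1 to 36, with the most in ZNF208. Of the members with a model, the nearest other member was a median of 64.9% identical in protein sequence, over the 236 for which a match was found. The closest pairs were ZNF587 with ZNF417 at 98.1% and ZNF98 with ZNF492 at 97.9%. Reads of such pairs could be divided between the copies in ways that the table does not show.

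Promoter sequences from RefSeq (GRCh38.p14, 250 bases before to 50 bases after the start) were found for 213 of the 252 members, 261 promoters in all. The letters CCGGAAG, the core that ETS family factors bind, searched on both strands, occurred in 39.5% of member promoters. The share was 10.3% over all 35116 promoters, 13.6% over the other promoters of chromosome 19 and 28.5% over ZNF promoters on other chromosomes. Members with a KRAB core held the letters in 42.6% of promoters and members without it in 22.7%. The promoters below were chosen among the members with the largest changes. The increases shown and ZNF534 are the largest changes with a RefSeq start that holds the ETS core. Its presence in them was therefore fixed by the choice, and other members with large increases were passed over. For a gene with several starts, a start with the core is shown. ZNF581 has the largest decrease and was taken whatever its letters. Capitals mark the ETS core, written CTTCCGG where it lies on the opposite strand. Members that were higher in siPAX9 come first. ZNF846 lies on the minus strand at chr19:9768689-9768988, ZNF701 (one of 2 starts) on the plus strand at chr19:52570414-52570713, ZNF431 on the plus strand at chr19:21141790-21142089, and ZNF345 (one of 3 starts) on the plus strand at chr19:36850626-36850925.
ZNF846: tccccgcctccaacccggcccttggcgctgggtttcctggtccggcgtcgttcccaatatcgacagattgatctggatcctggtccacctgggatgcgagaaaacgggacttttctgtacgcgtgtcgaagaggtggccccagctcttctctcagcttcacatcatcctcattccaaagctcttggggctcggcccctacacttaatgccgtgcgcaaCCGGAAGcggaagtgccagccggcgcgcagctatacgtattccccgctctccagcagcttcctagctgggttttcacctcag
ZNF701: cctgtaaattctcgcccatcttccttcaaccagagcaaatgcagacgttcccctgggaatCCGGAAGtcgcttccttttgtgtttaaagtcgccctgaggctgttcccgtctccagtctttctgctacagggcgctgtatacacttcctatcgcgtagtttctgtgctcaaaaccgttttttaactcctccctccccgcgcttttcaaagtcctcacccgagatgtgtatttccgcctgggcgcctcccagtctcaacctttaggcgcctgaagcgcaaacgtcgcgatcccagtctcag
ZNF431: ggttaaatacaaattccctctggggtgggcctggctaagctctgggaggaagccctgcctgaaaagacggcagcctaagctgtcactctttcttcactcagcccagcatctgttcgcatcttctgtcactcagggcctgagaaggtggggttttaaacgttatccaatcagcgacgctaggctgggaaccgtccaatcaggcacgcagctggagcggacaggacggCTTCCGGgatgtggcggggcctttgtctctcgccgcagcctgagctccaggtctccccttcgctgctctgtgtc
ZNF345: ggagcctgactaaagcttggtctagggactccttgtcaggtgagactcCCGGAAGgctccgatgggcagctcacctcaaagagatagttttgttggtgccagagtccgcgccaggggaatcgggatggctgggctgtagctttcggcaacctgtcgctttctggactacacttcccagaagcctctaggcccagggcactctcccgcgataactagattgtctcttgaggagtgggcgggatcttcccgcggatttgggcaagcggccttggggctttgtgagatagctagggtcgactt

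The next sequences belong to members that were lower in siPAX9, ZNF534 (plus strand, chr19:52428898-52429197) and ZNF581 (plus strand, chr19:55643399-55643698). ZNF534 also holds the ETS core, and these letters are not in the ZNF581 window, which therefore has no capitals.
ZNF534: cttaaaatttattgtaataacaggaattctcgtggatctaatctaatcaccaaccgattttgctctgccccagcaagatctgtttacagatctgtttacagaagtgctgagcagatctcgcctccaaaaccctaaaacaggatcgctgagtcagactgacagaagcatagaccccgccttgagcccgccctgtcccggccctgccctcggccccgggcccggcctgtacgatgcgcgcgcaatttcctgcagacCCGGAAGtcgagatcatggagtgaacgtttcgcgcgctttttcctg
ZNF581: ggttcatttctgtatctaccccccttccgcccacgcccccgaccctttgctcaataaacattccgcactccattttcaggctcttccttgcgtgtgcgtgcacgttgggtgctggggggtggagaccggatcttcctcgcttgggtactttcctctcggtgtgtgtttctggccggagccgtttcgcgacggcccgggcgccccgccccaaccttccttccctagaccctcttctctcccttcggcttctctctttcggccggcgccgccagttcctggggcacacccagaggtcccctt

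Members with and without the ETS core had nearly the same median change. Among members with an FPKM of at least 1 on average over the groups, the median log2 change of the 74 with the core was 0.43 and that of the 73 without it was 0.44. The GC box GGGCGG was found in 65.1% of member promoters and 45.0% of all promoters, but also in 61.2% of the other chromosome 19 promoters and 56.3% of ZNF promoters elsewhere. The median changes with and without it were 0.44 over 101 members and 0.40 over 46. GCGTGAC, a core found in several but not all known PAX9 binding sequences, was found in 3.45% of member promoters and 2.52% of all promoters, with 3.27% for the other chromosome 19 promoters and 3.82% for ZNF promoters elsewhere, and 4 members above the level filter held it, with a median change of 0.69 against 0.43 for the 143 without it, too few to read a difference from. Of the other letters searched, AAGATGG (YY1) stood in 9.20% of member promoters against 5.84% of all, 6.49% of the other chromosome 19 promoters and 5.21% of ZNF promoters elsewhere. The E-box CACGTG stood in 4.60% against 7.26%, 7.64% and 5.56% in the same order. GCATGCG (NRF1) stood in 5.36% against 3.91% of all promoters, but in 6.00% of the other chromosome 19 promoters and 7.29% of ZNF promoters elsewhere. TGACGTC (the CRE core) stood in 3.83% against 3.45% of all, and in 5.28% and 5.56% of those comparison promoters. No motif searched contains another, though their matches can overlap. Member promoters had a GC content of 60.3% at the median against 58.7% for all promoters, 63.3% for the other chromosome 19 promoters and 62.3% for ZNF promoters elsewhere. Their ratio of observed to expected CpG was 0.764 against 0.579, 0.667 and 0.800 in the same order.

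As the check of the knockdown, the row named PAX9 (chromosome 14, row limits 37126773 to 37642998 on hg19) went from 2.80 FPKM in siNT to 0.325 in siPAX9. This is a log2 change of -3.10, or -1.52 with 1 added to both values. The basal epithelial keratins were high in both groups, with KRT5 at 1558 and 1807 FPKM, KRT17 at 1718 and 2088 and KRT14 at 31.4 and 40.9. The integrin ITGB4 was at 147 and 128 FPKM and the growth factor receptor EGFR at 64.3 and 58.1. The adhesion protein CDH1 went from 45.3 to 124 FPKM and the p63 transcription factor TP63 from 35.4 to 25.3. Of the 5 markers of other cell types, those of leukocytes (PTPRC), neural crest (SOX10) and luminal epithelium (ESR1) were at or below 0.317 FPKM. The endothelial marker PECAM1 went from 2.58 to 0.495 and the fibroblast collagen COL1A1 from 0.454 to 4.13. Whether these marker differences have a part in the zinc finger values was not tested.

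Zinc finger RNAs were scarce in MCF10A cells. Of the 252 members, 165 had a mean FPKM of at least 1 over the groups and are described as expressed below, while 87 fell under that level. The median of the mean FPKM over the expressed members was 3.19, against 10.6 over the 12595 named rows that pass the same filter. Of the 87 others, 19 were listed at 0 in both groups, 7 in siNT alone and 2 in siPAX9 alone, and no value opposite a single 0 exceeded 0.0172 FPKM. The members just under the filter were ZNF699 at 0.895 and 1.03 FPKM, ZNF285 at 1.06 and 0.818, and ZNF329 at 0.611 and 1.24. Of the 59 members under the filter with an FPKM above 0 in both groups, 52 were higher in siPAX9 (88.1%, median log2 change 0.88), beside 64.5% of the 5359 named rows chosen in the same way, whose median was 0.39.

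Chromosome 19 zinc finger RNAs were mostly higher after PAX9 depletion. Of the 165 expressed members, 141 had a higher FPKM in siPAX9 and 24 a lower one, where 44.8% of the named rows were higher and 55.2% lower. The median log2 change was 0.46, or 1.38-fold, with quartiles at 0.15 and 0.77. The median over all named rows was -0.07. The shift was broad and of modest size. At least 2-fold higher were 19 members, 11.5% against 6.75% of named rows. Restricted to a mean of 1 to 10 FPKM, these shares were 11.8% and 9.89%, so at a like level the share of 2-fold increases was close to the background. At least 2-fold lower were 2 members, 1.21% against 6.91%. At 1.5-fold the counts were 59 higher, 35.8% against 13.5%, and 5 lower, where 16.7% of named rows were lower. Many members have an FPKM near 1, and adding 1 to both values left 3 members 2-fold higher (ZNF431, ZNF561 and ZNF552) and 1 lower (ZNF581). These are 1.82% and 0.606% of members, where 4.72% and 4.89% of named rows were past 2-fold, so the members' share of 2-fold increases was then below the background. The median was then 0.35, against -0.06 over named rows. Summed over the rows of the expressed members, the FPKM was 731 in siNT and 876 in siPAX9.

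**Figure D1:**
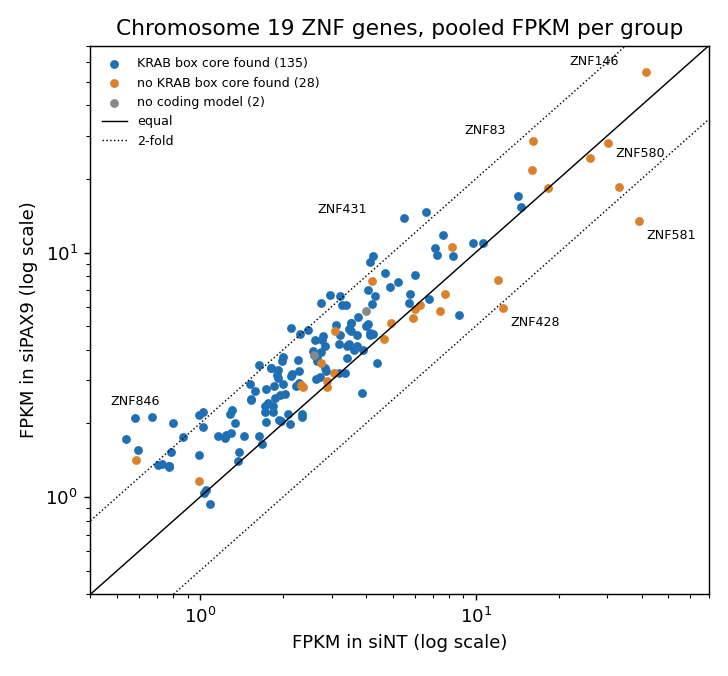
FPKM in siPAX9 (vertical, log scale) against FPKM in siNT (horizontal, log scale) for the 165 expressed chromosome 19 ZNF genes, 1 point a gene coloured by the KRAB core, with the lines of equal level and of 2-fold change. Of these, 141 lie above the line of equal level, ZNF581 and ZNF428 (drawn by the higher of its 2 rows) lie below the lower 2-fold line.

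The 8 largest increases among expressed members with a row of their own were ZNF846, ZNF701, ZNF253, ZNF443, ZNF790, ZNF431, ZNF345 and ZNF708. ZNF846 went from 0.582 to 2.10 FPKM (log2 change 1.85), ZNF701 from 0.537 to 1.73 (1.69) and ZNF253 from 0.668 to 2.12 (1.67). ZNF443 went from 0.595 to 1.56 FPKM (1.39). These 4 started below 1 FPKM in siNT, where a small absolute difference gives a large ratio, and with 1 added their changes were 0.97, 0.83, 0.90 and 0.68. ZNF790 went from 0.795 to 2.01 FPKM (1.34) and ZNF345 from 0.587 to 1.41 (1.27), also from below 1 FPKM, and with 1 added their changes were 0.74 and 0.61. The rows of ZNF345, ZNF790 and ZNF829, the last of them under the level filter, have the same coordinates, 37288452 to 37407193. ZNF345 lies on the opposite strand to the others, so their reads may not be separable. ZNF708 was at 2.14 FPKM in siNT and 4.90 in siPAX9 (1.20). ZNF431 had the highest level of the 8, with 5.51 FPKM in siNT and 13.8 in siPAX9, a log2 change of 1.33 and still 1.19 with 1 added. Of the 19 members that were at least 2-fold higher, 18 (94.7%) carry the KRAB core, as do 81.8% of all expressed members, and 8 were below 1 FPKM in siNT, so that they passed the level filter through siPAX9.

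The decreases were fewer and were led, among members with a row of their own, by 3 without the KRAB core, ZNF581, ZNF428 and ZNF358. ZNF653, also without it, had a log2 change of -0.85 in a row that it shares with ECSIT. ZNF581, in a short row from 56154986 to 56156989 on hg19, went from 39.3 to 13.5 FPKM, a log2 change of -1.55. Its upstream neighbour ZNF580 was at 30.3 and 28.2 FPKM (log2 change -0.11). The annotated genes of this pair overlap on the same strand, though their rows do not. ZNF428 went from 12.6 to 5.93 FPKM (-1.08), in the higher of its 2 rows, and from 5.61 to 4.20 in the other. With both rows summed its change was -0.84, short of 2-fold. Then came ZNF358 at 12.1 and 7.70 FPKM (-0.65), ZNF534 at 8.71 and 5.56 (-0.65), ZNF614 at 3.88 and 2.66 (-0.55), ZNF507 at 7.40 and 5.77 (-0.36), ZNF284 at 4.37 and 3.53 (-0.31) and ZNF836 at 1.09 and 0.935 (-0.22). After the first pair, none of these reached 2-fold. Of the 24 expressed members with a lower FPKM, 13 lack the KRAB core and 11 carry it.

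The most abundant members with a row of their own did not share 1 direction. ZNF146, a protein made almost wholly of zinc fingers, had the highest level, with 41.4 FPKM in siNT and 54.8 in siPAX9 (0.41). Its row has the same coordinates as that of ZNF565 on the opposite strand, so their reads may not be separable. ZNF83 went from 16.2 to 28.5 FPKM (0.82) and ZNF121 from 16.0 to 21.7 (0.43). ZNF580 and ZNF787 (25.9 and 24.3 FPKM, -0.09) differed little, and ZNF581 had the largest decrease of all expressed members. By level, the median change of the members was 0.69 for the 36 with a mean of 1 to 2 FPKM, 0.47 for the 88 with 2 to 5, 0.39 for the 28 with 5 to 10 and 0.08 for the 13 with at least 10. The counts of higher members in these ranges were 33, 80, 19 and 9, or 91.7%, 90.9%, 67.9% and 69.2%, against 58.2%, 50.7%, 48.1% and 39.0% of the named rows. The named rows in the same ranges had medians of 0.16, 0.02, -0.03 and -0.13, so a gradient of the same sign with level is present over all genes. Over the 165 members, Spearman's rho between mean FPKM and change was -0.26, against -0.16 over the named rows. The same FPKM values enter both quantities, so rho is a description.

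Most of the members that were higher carry the KRAB core. Of the 135 expressed members with the core, 124 were higher in siPAX9, with a median log2 change of 0.53. At least 2-fold higher were 18 of the 135 (13.3%) and 2-fold lower 0, against 6.75% and 6.91% of named rows. Of named rows with 1 to 10 FPKM, 9.89% were 2-fold higher. Of the 28 expressed members without the core, 15 were higher and 13 lower, with a median of 0.03. Among them 1 was at least 2-fold higher (ZNF345, 3.57%). At least 2-fold lower were 2 (7.14%), ZNF581 and, in its higher row alone, ZNF428. The 2 expressed members without a model had a median of 0.54. Members with the core were lower in level, with a median mean FPKM of 2.91 against 6.08. Within 1 to 5 FPKM, the medians were 0.53 over 112 members with the core, 103 of them higher, and 0.24 over 10 without it, 8 of them higher. At 5 FPKM or more, they were 0.53 over 23 members with the core, 21 of them higher, and -0.07 over 18 without it, 7 of them higher. ZNF genes on other chromosomes were shifted less. Of 210 expressed, 136 were higher, with a median of 0.16, and the 88 of them with the KRAB core had a median of 0.21 and 59 higher (67.0%), beside a median of 0.07 and 69 higher (61.1%) for the 113 without it. At least 2-fold higher were 3.41% of those with the core and 5.31% of those without it, both below the 6.75% of named rows.

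**Figure D2:**
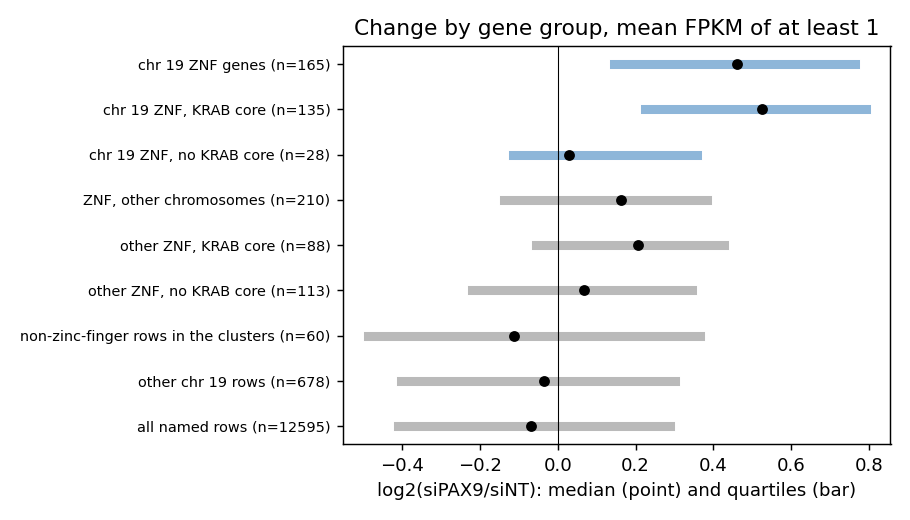
Log2 change from siNT to siPAX9 (horizontal) in each group of expressed genes or rows named on the vertical axis, with its n, as the median (point) and the quartiles over genes (bar). The members with the KRAB core have a median of 0.53, those without it 0.03, and the other chromosome 19 rows a median of -0.04.

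Other genes of chromosome 19 did not share the shift. Of the 678 other expressed named rows of the chromosome, 319 were higher, with a median log2 change of -0.04. Rows with no zinc finger name that lie inside the spans of the large clusters described below numbered 60 with a mean of at least 1 FPKM. Of these, 26 were higher, with a median of -0.11. A span runs from the first to the last member of a cluster, so such a row need not lie within a tandem array. The 610 such rows outside these spans had a median of -0.04. C2H2 genes of chromosome 19 under other names (such as ZSCAN and ZIM symbols) had 5 expressed rows, of which 4 were higher, with a median of 0.15.

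The members fall into 16 clusters along the chromosome when a gap of over 1 Mb starts a new one. The 7 clusters with at least 5 expressed members hold 231 of the 252 members and 151 of the 165 expressed. Their medians ranged from 0.18 to 0.75, and all 7 were positive. The clusters are numbered 1 to 16 from the end of the short arm. Cluster 5, next to the centromere on the short arm, 19778871 to 24312769 on hg19, ends 319014 bases before the centromere gap and holds 36 members, 16 of them expressed. All 16 were higher in siPAX9, with a median of 0.75. At least 2-fold higher were 7 of them (43.8%), against 6.75% of named rows and 9.89% of those with a mean of 1 to 10 FPKM. The 7 include ZNF431, ZNF253 and ZNF708 and, named here after their values were seen, ZNF91 at 4.15 and 9.12 FPKM (1.14), ZNF675 at 2.97 and 6.69 (1.17), ZNF254 at 2.74 and 6.22 (1.18) and ZNF493 at 2.30 and 4.65 (1.01). With 1 added to both values, ZNF431 alone stayed past 2-fold (1.19), and the others had changes from 0.77 (ZNF493) to 0.98 (ZNF91). ZNF91 is known as a repressor of the SVA family of primate retroelements, and it has 31 zinc fingers. The lowest changes in this cluster were those of ZNF724 (0.02), ZNF14 (0.05) and ZNF100 (0.12). A second ZNF100 row, with less RNA, went from 0.476 to 1.09 FPKM, and with both rows summed the change of ZNF100 was 0.44.

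Cluster 3, from 11594242 to 12742934 on the short arm, had 14 expressed members of 27, 13 of them higher, and a median of 0.75. Its 1 lower member, ZNF653, shares its row with ECSIT, a mitochondrial assembly and signalling factor, at 33.3 FPKM in siNT and 18.5 in siPAX9, so that row cannot be assigned to the zinc finger gene. On the long arm, cluster 9, from 36672962 to 38270230, had 17 expressed members of 26, all 17 higher, with a median of 0.67. ZNF146, ZNF345 and ZNF790 belong to it. Cluster 15, from 52074490 to 54083523, had 32 expressed members of 43, 29 of them higher, and a median of 0.62. At least 2-fold higher were 5 (15.6%), against 6.75% of named rows, and with 1 added to both values none stayed past 2-fold. The cluster holds both ZNF701 and ZNF83 and the lower ZNF534, ZNF614 and ZNF836. ZNF761, in the same cluster, went from 4.71 to 8.27 FPKM in a row shared with the tropomyosin pseudogene TPM3P9.

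The remaining large clusters were shifted less. Cluster 2, from 7069471 to 9879410, had 13 expressed members of 15, 11 of them higher, with a median of 0.43, and its members with the KRAB core were higher in 10 of 10. It holds ZNF846, ZNF121 and the lower ZNF358. Cluster 16, at the end of the long arm from 55987699 to 59000900, has the most members, 60, with 43 expressed, 36 of them higher and a median of 0.28. Its 31 members with the core had a median of 0.33 and its 11 without it, among them ZNF580, ZNF581 and ZNF787, a median of 0.01. ZNF547 lies there in a row shared with the trafficking gene TRAPPC2B, at 14.6 and 15.4 FPKM. Cluster 12, from 44037340 to 45579688 with ZNF428 and ZNF284, had the lowest median, 0.18, with 12 of 16 expressed members higher and 0 of them 2-fold. The 9 small clusters hold 14 expressed members in all, 7 higher and 7 lower. In cluster 8 all 4 expressed members carry the KRAB core, and 2 of them were lower. Their most abundant members were ZNF57 (3.74 and 5.47 FPKM), ZNF333 (2.09 and 2.19), ZNF181 (3.42 and 3.69), ZNF780A (4.15 and 4.68), ZNF574 (6.01 and 5.90), ZNF473 (2.88 and 2.81) and ZNF507. ZNF473 encodes a component of the machinery that processes histone pre-mRNAs.

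**Figure D3:**
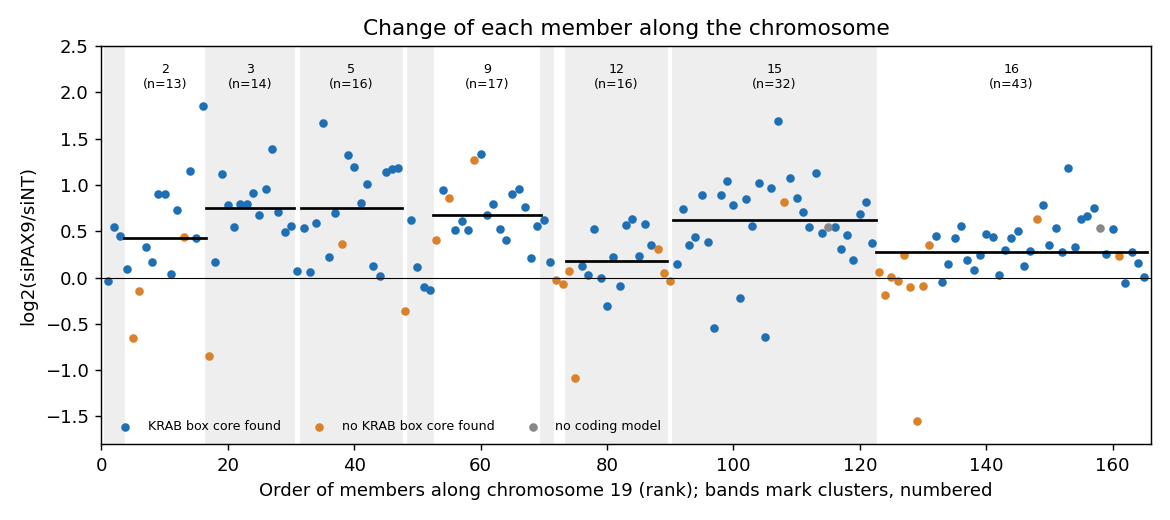
Log2 change from siNT to siPAX9 (vertical) of the expressed members against their order along chromosome 19 (horizontal, rank), 1 point a gene coloured by the KRAB core, with the clusters as bands, the large ones numbered and their medians drawn as lines. All 16 expressed members of cluster 5 and all 17 of cluster 9 lie above 0, and cluster 12 has the lowest median of the large clusters, 0.18.

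By arm, 43 of 47 expressed members of the short arm were higher, with a median of 0.59, and 98 of 118 of the long arm, with a median of 0.42. Neighbouring members within a cluster resembled each other somewhat in change. Over 148 neighbouring pairs, Pearson's r was 0.33 and Spearman's rho 0.37, and the median absolute difference was 0.30, against 0.44 over all 13041 pairs of the 162 rows that hold expressed members. Neighbours share position, and a few may share reads, so these values are descriptions. Members whose protein is closer to a relative had larger changes. Those under 60% identical had a median of 0.24 over 54, those from 60% to 75% 0.54 over 51, and those of at least 75% 0.62 over 54, with 52 of the last group higher. At least 2-fold higher were 2, 5 and 12 in the same order (3.70%, 9.80% and 22.2%), against 6.75% of named rows. Among members with the KRAB core the medians were 0.35 over 36, 0.51 over 48 and 0.63 over 51. Spearman's rho was 0.37 over 159 members. Longer rows had larger changes, with medians of 0.26 for the 42 members under 15 kb, 0.44 for the 80 from 15 to 30 kb and 0.66 for the 43 of at least 30 kb, and a rho of 0.38, where the named rows gave 0.02. Among members with the KRAB core the same ranges had medians of 0.45, 0.45 and 0.72, so the first step was not seen there. Length here is the span given for a row, which can exceed the gene, and 17 of the 252 members have the same span as another. It was not separated from cluster. Among members with the KRAB core, no such order was seen with the number of zinc fingers. Their medians were 0.54 under 10 fingers, 0.45 for 10 to 14 and 0.56 for 15 or more, with a rho of 0.05 over 135. Over all 163 expressed members with a coding model, rho was 0.18.

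The RNAs of corepressor and heterochromatin genes, a list that includes partners of KRAB zinc finger proteins, went mostly the other way. The list was chosen with earlier results of these data known. Of 33 corepressor and heterochromatin genes, 32 were expressed, and 27 of these (84.4%) had a lower FPKM in siPAX9, against 55.2% of named rows. Their median log2 change was -0.27. Of the 24 with at least 10 FPKM, 21 were lower, where 61.0% of the named rows at that level were lower with a median of -0.13. At least 2-fold lower were 4 (12.5% against 6.91% of named rows) and at least 2-fold higher 0. With 1 added to both values, CHAF1B and CBX5 alone stayed past 2-fold, 6.25% against 4.89% of named rows. The 4 were CHAF1B, a subunit of the histone chaperone CAF-1, at 4.59 and 1.73 FPKM (-1.41), CBX5 (HP1 alpha) at 26.1 and 11.0 (-1.25), SUV39H1, a heterochromatic histone methyltransferase, at 4.83 and 2.30 (-1.07), and CBX1 (HP1 beta) at 35.9 and 17.6 (-1.03). The row of CBX5 also carries MIR3198-2. TRIM28, the direct partner of the KRAB domain, lies at the end of chromosome 19 beyond the last member and went from 79.6 to 46.8 FPKM (-0.77). Its partner SETDB1 was at 17.9 and 14.9 FPKM (-0.26), and CBX3 (HP1 gamma), in a row shared with NFE2L3, at 118 and 84.3 (-0.48). EHMT1, another histone methyltransferase, had the largest increase of the list, from 11.5 to 16.1 FPKM (0.49). Whether the levels of these genes have a part in those of the zinc finger genes was not tested.

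**Figure D4:**
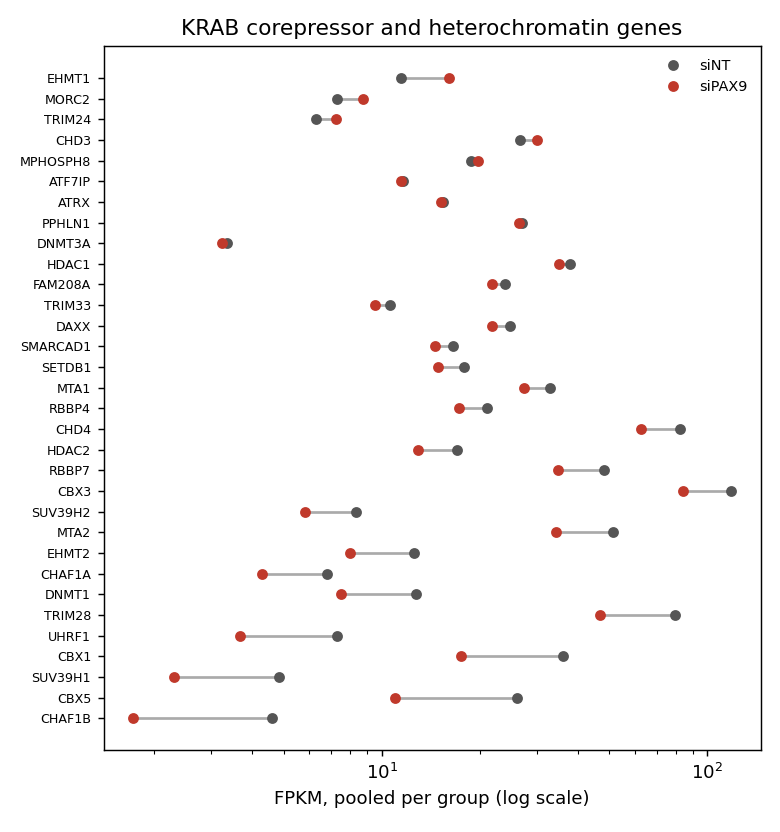
Pooled FPKM (horizontal, log scale) in siNT (grey) and siPAX9 (red) of each corepressor and heterochromatin gene with a mean of at least 1 FPKM (vertical, ordered by change), with no error bars since each point is 1 pooled value. The siPAX9 point lies left of the siNT point for 27 of the 32 genes, by 2-fold or more for CHAF1B, CBX5, SUV39H1 and CBX1.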

How the data were processed

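RNA was measured in 3 siNT and 3 siPAX9 samples of MCF10A cells. Reads were single-end, from poly(A)+ RNA. Per the study's methods and the submitters' processing notes, Bowtie 2 placed them on hg19 and Cufflinks gave the levels, within Partek Flow. The deposited values are FPKM, 1 per group and row, pooled over the samples of the group, and scaling between libraries is not given in the sources used here. The fold changes, p-values and q-values of the authors' own comparison were not used. The study's methods give the range of reads per library, but the table holds no counts, so no interval was computed for a single FPKM.

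Members and gene lists were chosen with earlier results of these data known. Where a symbol stood in 2 rows (3 symbols), the row with the highest mean FPKM was kept. Of the members, 11 lie in rows with several symbols. The change is log2(siPAX9/siNT) on the deposited FPKM, for a mean FPKM of at least 1, and a fold of 2 was the threshold. With 1 pooled value per group no test was made, and shares over named rows are given instead. Coordinates of genes and clusters are the limits of rows, 1-based on hg19, the starts of the rows having 1 added. Those of promoters are RefSeq's on GRCh38.p14. Genes were named by size of change (the 8 largest increases and decreases), by level (the 6 highest), both among members in rows with 1 symbol, as the highest in each cluster, or for a shared row.

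Protein features came from the longest intact coding sequence of GENCODE release 44 on GRCh37, translated (a KRAB core allows at most 3 mismatches in 10 fixed residues), since no protein table was used here. Identities were found with blastp 2.17.0 (E of at most 1e-10, at least 50% of the query). Python 3.11.15, numpy 2.4.6, pandas 2.3.3, scipy 1.17.1 and matplotlib 3.10.9 were used, and the scripts were tested on simulated data. Alternatives covered the value added, the level filter, centring, shared and repeated rows, pseudogenes, the background, the fold and the cluster gap.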

Additional observations from a re-analysis of the deposited data

How the results depend on the processing

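The count of members at least 2-fold higher, 19 of 165, was 3 with 1 added to both FPKM (1.82%, below the 4.72% of named rows), 10 of 129 with a mean FPKM of at least 2 (7.75% against 5.43%), 44 of 224 with any FPKM above 0 in both groups (19.6% against 13.97%), and 59 at a fold of 1.5 (35.8% against 13.5%). The count at least 2-fold lower, 2, was 1 with 1 added, 1 with the rows of a symbol summed (ZNF428 then falls short) and 5 at a fold of 1.5. The median change of 0.46 was 0.35 with 1 added and at most 0.54 otherwise. A gap of over 0.5 Mb gave 20 clusters and a gap of over 2 Mb gave 8, in place of 16. The count of lower members stayed between 17 and 31 over 13 alternatives, and 3 of these (tested rows alone, each row once, near-identical members left out) were chosen after seeing the data. No paired analysis was possible because the table holds 1 pooled value per group, and leaving out replicates was not run for the same reason.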
